A study of Gossypium bickii with 18 samples.

Results

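A set of 230 gene IDs was highly represented in RNA from cotyledons of Gossypium bickii at 0 h and had nearly gone 12 h after imbibition, the uptake of water that starts germination. They were selected on their measured time-course levels: each ID had a mean of at least 20 FPKM at 0 h, a 12 h mean at most 1/20 of that, and a 48 h mean no higher than its 12 h mean. FPKM is a fragment count scaled to gene length and library size, so levels of different genes can be compared within a library. The 230 IDs, called cleared transcripts here, came from 43790 IDs in the time-course table. Of the 4387 IDs at 20 FPKM or more at 0 h they were 5.24%. The other 4157 serve below as the remaining seed genes.

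G. bickii is an Australian diploid cotton. The series holds 18 cotyledon libraries in 6 groups of 3. The groups were 0 h, for which no light condition is given, 12, 24, 36 and 48 h under light, and 24 h in the dark. The labels name no genotype or other treatment, and the groups differ as labelled only in time and light. Libraries are called biological replicates, with no word on the plants or seed batches behind each, so a p-value measures only the spread between these libraries. Whole cotyledon RNA was measured, so a loss of cells of a type and a loss of RNA per cell cannot be told apart. Imbibition and light cannot be told apart at 12 h either, where there was no dark group.

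Mature seeds keep messenger RNAs made while the embryo ripened and dried. In many plants such stored messengers include those for storage proteins, oil body proteins and proteins of desiccation tolerance. Many of them are degraded soon after water uptake, while new transcription takes over. Which of these classes the 230 IDs belong to is not known here, because the files do not pair IDs with gene names. For the same reason cotyledon marker genes could not be looked up and the labelled tissue was not checked. No sequence is shown.

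The cleared transcripts were concentrated at the top of the 0 h libraries. The 0 h mean enters the rule, as the minimum and in the ratio to 12 h, which favours high levels. The 0 h counts and medians given here are therefore descriptions. They were 9 of the 10 genes with the highest 0 h mean, 40 of the highest 50 and 66 of the highest 100. They made up 76.9% of the genes at 1000 FPKM or more at 0 h (40 of 52), 16.0% of those from 100 up to 1000 FPKM (128 of 802) and 1.75% of those from 20 up to 100 FPKM (62 of 3533). Their 0 h means ran from 20.9 to 30130 FPKM, with a median of 267 FPKM, against a median of 40.8 FPKM for the remaining seed genes.

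In the 0 h libraries 1, 2 and 3 the cleared transcripts took 37.2%, 32.8% and 33.5% of summed FPKM. At 12 h they took 0.580%, 0.660% and 0.326%, and at 24 h 0.179%, 0.198% and 0.156%. The share went on to 0.114%, 0.0928% and 0.137% at 36 h and to 0.0367%, 0.0396% and 0.0493% at 48 h. No library of one time reached the range of the time before it. The fall from 0 h to 12 h and the low end at 48 h follow from how the IDs were chosen, and the 24 h and 36 h values do not enter the choice. The remaining seed genes held 50.9% ± 1.22 at 0 h and 58.1% ± 1.16 at 12 h (SD, n = 3), then 54.9% ± 0.700, 50.9% ± 0.796 and 32.2% ± 3.00 at 24, 36 and 48 h. Since FPKM is relative to the whole library, the loss of so large a share by itself raises the FPKM of every other gene.

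**Figure D1:**
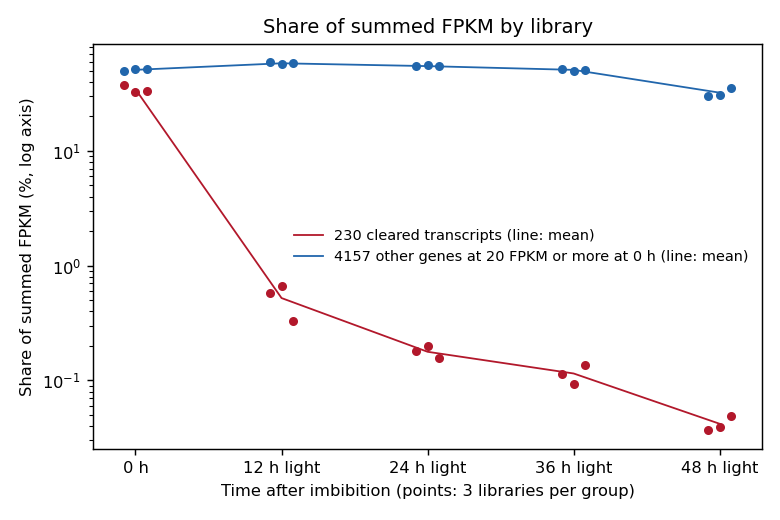
Share of summed FPKM (%, log axis) held by the 230 cleared transcripts and by the 4157 remaining seed genes in each time-course library; points are libraries, lines join group means. The cleared transcripts start at 32.8% to 37.2% and end at 0.0367% to 0.0493%, while the remaining seed genes stay between 30.3% and 59.1%.

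A few transcripts carried much of the 0 h signal, and the 10 highest in each 0 h library took 49.1%, 52.8% and 51.9% of the summed level of the set. Gbi10G0039 was the highest, at 28721.4, 36662.5 and 25005.5 FPKM in the 0 h libraries. It stood at 644, 921 and 413 FPKM at 12 h, at 199, 146 and 141 FPKM at 24 h, at 59.0, 47.0 and 56.3 FPKM at 36 h and at 1.57, 6.75 and 8.03 FPKM at 48 h. All libraries of each time lay below all libraries of the time before.

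Gbi09G1377 measured 15775, 12292.5 and 15644 FPKM at 0 h and 148, 114 and 50.8 FPKM at 12 h. It went down to 15.3, 26.2 and 11.0 FPKM at 24 h, 7.82, 5.65 and 9.68 FPKM at 36 h and 1.64, 0.840 and 3.05 FPKM at 48 h. The groups did not overlap in this gene either, and its mean at 12 h was 0.715% of its mean at 0 h. Gbi03G0425 averaged 11867 ± 2956 FPKM at 0 h, 57.9 ± 31.4 FPKM at 12 h, 16.5 ± 1.06 FPKM at 24 h, 6.74 ± 1.39 FPKM at 36 h and 1.63 ± 0.451 FPKM at 48 h, with SD over n = 3. Gbi09G1925 (14353 FPKM at 0 h), Gbi09G2393 (8263), Gbi11G2260 (6935) and Gbi12G0117 (5331) followed the same order of means, as did Gbi10G3005, Gbi11G0026 and Gbi09G3157 with 0 h means of 6920.1, 4222 and 3488 FPKM.

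The proportion left at 12 h ran from 0.0364% to 4.99% of the 0 h mean within the set, with a median of 1.68%. It was at most 1% for 74 of the 230 transcripts. The median over the remaining seed genes was 71.5%. Among transcripts above 0 FPKM in every 12 h library, Gbi06G0248 had the largest ratio of the 0 h to the 12 h mean. It stood at 339, 435 and 346 FPKM at 0 h and at 0.832, 0.748 and 0.254 FPKM at 12 h, a ratio of 611. Gbi10G1283 came next, at 674, 413 and 605 FPKM at 0 h against 1.24, 1.72 and 0.424 FPKM at 12 h, a ratio of 500.4. By 48 h each of these genes had a value of 0 in every library. No transcript of the set was listed at 0 in every 12 h library, while the 24 h group had 7 such transcripts, the 36 h group 9 and the 48 h group 38.

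The order of levels at 0 h was carried over to 12 h and was then lost by steps. Across the 230 transcripts, Spearman's rho with the 0 h mean was 0.806 for the 12 h mean, 0.613 for the 24 h mean, 0.470 for the 36 h mean and 0.216 for the 48 h mean. The rule itself bounds the 12 h and 48 h values, and the points share their libraries, so these are descriptions. The remaining seed genes gave 0.480, 0.478, 0.461 and 0.365.

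**Figure D2:**
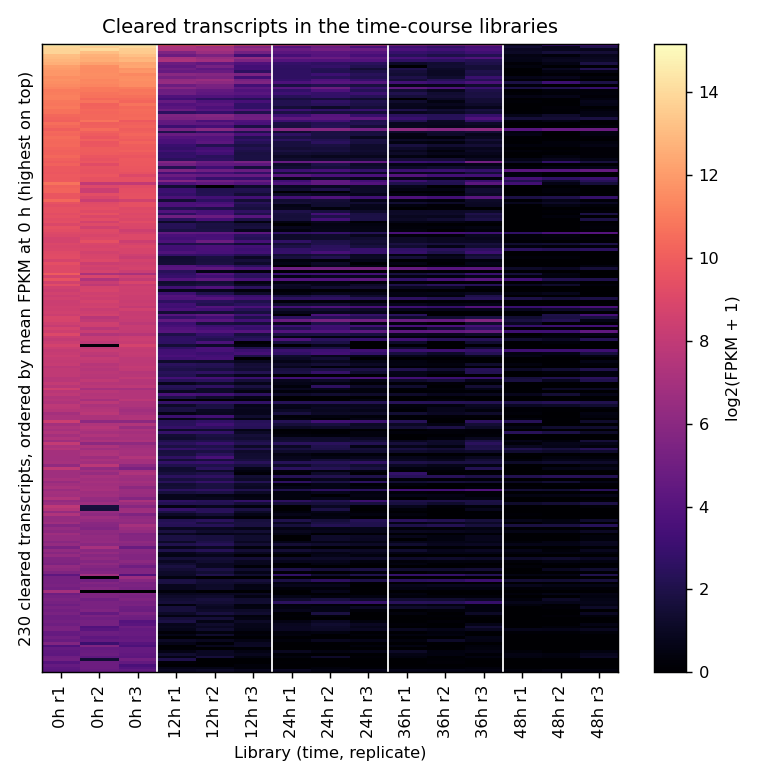
Level, as log2(FPKM + 1), of the 230 cleared transcripts (rows, ordered by 0 h mean) in the 15 time-course libraries (columns, 3 replicates per time). Levels drop at once between 0 h and 12 h across all rows and fade further to 48 h, with a few rows that stay visible at 24 h and 36 h and a few that are near 0 in 0 h replicate 2.

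Nearest to the 0 h minimum of 20 FPKM lay Gbi11G2880 (20.9 FPKM) and Gbi13G2159 (21.0 FPKM) inside, and Gbi12G3136 (19.6 FPKM) and Gbi08G0300 (18.4 FPKM) outside. For the ratio of 0 h to 12 h means, Gbi02G1883 (20.05) and Gbi04G1085 (20.2) were the last inside, and Gbi13G0545 (19.7) and Gbi12G0776 (19.1) the first outside. For the ratio of 48 h to 12 h means, which may not pass 1, Gbi02G1736 (0.976) and Gbi01G2275 (0.909) lay inside and Gbi13G4344 (1.03) and Gbi06G0342 (1.07) outside. This last condition set aside 67 IDs that met the others.

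All 228 cleared transcripts that passed the filter (at least 1 FPKM in at least 3 libraries) were called lower at 12 h than at 0 h by limma, against 11.6% of all genes tested. The rule chose them on this contrast, so nothing is read from the count. In 225 of the 228 every 12 h library lay below every 0 h library, as in 21.2% of all genes tested. The transcripts not tested were Gbi08G0767 and Gbi04G0306. Gbi08G0767 stood at 124, 0 and 0 FPKM at 0 h and so belongs to the set through 1 library. Gbi04G0306 stood at 37.0, 0 and 94.6 FPKM. Gbi04G0305, with the adjacent ID number, stood at 413, 0.194 and 428 FPKM at 0 h, and Gbi05G0203 at 181, 2.12 and 103 FPKM. In Gbi06G1919, at 32.5, 1.85 and 33.7 FPKM, it was again replicate 2 that was low. These last 4 and Gbi13G0450, at 227, 2.19 and 57.4 FPKM, were under 1/10 of both other libraries in replicate 2, and no transcript of the set was so in replicate 1 or replicate 3. Replicate 1 was the highest 0 h library for 125 of the 230 transcripts.

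One 12 h library stood apart for this set. Of the 193 cleared transcripts at a mean of 1 FPKM or more at 12 h, 165 were lowest in replicate 3, as were 39 of the 40 transcripts that reached 1000 FPKM at 0 h. In the remaining seed genes replicate 3 was lowest in 34.0%. The median ratio of replicate 3 to the group mean was 0.645 for the cleared transcripts and 0.994 for the remaining seed genes. Measured against the 0 h mean, the median left was 1.88%, 1.97% and 0.987% in replicates 1, 2 and 3, and 1.96% in the mean without replicate 3. Without that library 215 IDs met the rule. The replicate spread of the set was wide at 12 h, with a median coefficient of variation of 37.4% against 12.8% for the remaining seed genes. At 0 h the values were 17.5% and 10.8%. They were 24.8% and 10.7% at 24 h, 33.0% and 13.7% at 36 h, and 42.5% and 21.6% at 48 h. The wider spread was thus not particular to 12 h. Levels differed too, with 12 h medians of 3.94 FPKM in the set and 31.0 FPKM in the remaining seed genes. What sets replicate 3 apart was not tested.

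**Figure D3:**
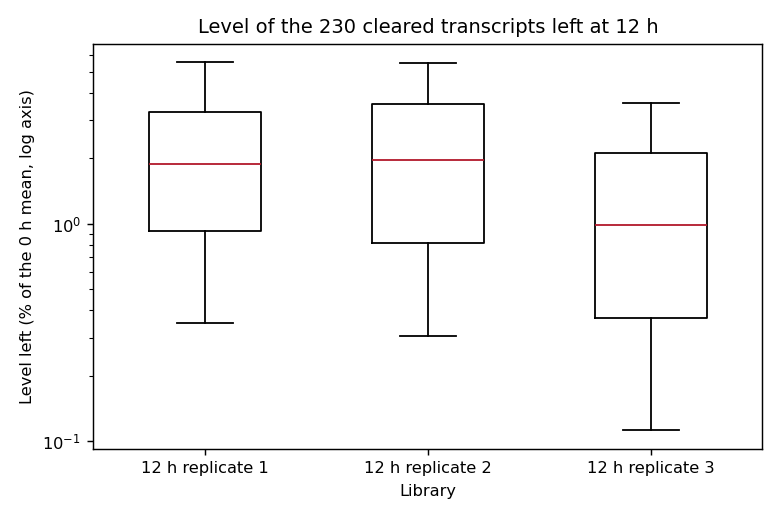
Level of each of the 230 cleared transcripts in the 3 libraries of 12 h, as a percentage of its 0 h mean (log axis); boxes span the quartiles, the red line is the median, and whiskers reach the 5th and 95th percentiles. The medians are 1.88%, 1.97% and 0.987%, lowest in replicate 3.

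After 12 h most cleared transcripts kept going down. The 24 h mean was below the 12 h mean in 202 of 230, the 36 h mean below the 24 h mean in 182, and the 48 h mean below the 36 h mean in 193. Of the remaining seed genes, 53.4%, 66.5% and 67.3% went down at these steps. In 148 of the 230 cleared transcripts no step went up. By limma 88 of the 228 tested were called lower at 24 h than at 12 h (2.21% of all genes tested), 144 lower at 48 h than at 12 h (16.4%) and 43 lower at 48 h than at 36 h (12.3%). These contrasts use libraries that chose the set, and nothing is read from their counts. Among the 91 cleared transcripts at 5 FPKM or more at 12 h, the median level left at 24 h was 27.6% of the 12 h mean, against 96.9% in the remaining seed genes above the same level. For 43 transcripts at 5 FPKM or more at 24 h, 52.5% was left at 36 h (quartiles 37.9% and 85.4%), against 92.4%. For 30 at 5 FPKM or more at 36 h, 31.8% was left at 48 h, against 75.7%. The proportion lost was thus smallest between 24 h and 36 h, though each step rests on another subset. The 12 h and 48 h means took part in the choice, so the first and last of these steps are descriptions.

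The means at 24 h and 36 h took no part in the choice, and the step between them was tested. All 5 times were fitted together, so the error estimates and the filter also draw on the libraries that chose the set. Of the 228 cleared transcripts tested, 101 do not pass the filter on the 24 h and 36 h libraries alone, and 33 had a mean under 1 FPKM in one of these groups only. The 228 therefore do not stand as an independent sample of the set. By limma on log2(FPKM + 1), 17 of the 228 were lower at 36 h, with an adjusted p under 0.05 and an absolute log2 difference of at least 1. That is 7.46%, against 0.579% of all 26086 genes tested and 0.698% of the remaining seed genes. Another 2 were higher (0.877%), against 2.58% of all genes. In either direction the calls were 19, or 8.33%, against 3.16% of all genes. In 81 of the 228 the 36 h libraries lay wholly below the 24 h libraries (35.5%), as in 11.4% of all genes and 21.1% of the remaining seed genes, and in 9 they lay wholly above (3.95%, against 13.9%). The median log2 difference was -0.28 over the cleared transcripts, -0.11 over the remaining seed genes and 0.01 over all genes tested. The median of the cleared transcripts was -0.72 with a pseudocount of 0.1 and -0.54 in a fit of the 24 h and 36 h libraries alone.

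Among those lower at 36 h, Gbi09G1925 had 25.1, 33.4 and 26.4 FPKM at 24 h and 11.7, 8.63 and 11.3 FPKM at 36 h. The groups were far apart, with a log2 difference of -1.34 (SE 0.22, limma adjusted p = 0.00244). Gbi10G0039, the highest transcript, had the largest difference of those called, -1.55 (SE 0.40, limma adjusted p = 0.0325). This rank depends on the pseudocount. With 0.1 the largest of the same transcripts was Gbi10G0212 at -2.33, against -1.57 for Gbi10G0039. The call of Gbi10G0039 was lost in 5 of the 6 fits that left out 1 library of these times (adjusted p from 0.0401 to 0.127). The transcripts called lower without any of the 6 libraries were Gbi09G1925, Gbi08G2582, Gbi03G1741, Gbi12G1677 and Gbiscaffold_48G0001. Of these only Gbi09G1925 was also called in the fit of the 24 h and 36 h libraries alone. For the same 24 h light libraries Gbiscaffold_48G0001 averaged 7.12 FPKM in the time course and 0.738 FPKM in the light-dark values. Gbi03G1741 also differed widely between them, as described below. The levels behind these calls are therefore uncertain for Gbiscaffold_48G0001 and Gbi03G1741.

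Both transcripts called higher at this step were low in absolute terms. Gbi10G2395 had 3.22, 4.95 and 4.38 FPKM at 24 h and 8.88, 9.38 and 13.1 FPKM at 36 h, a log2 difference of 1.14 (SE 0.25, limma adjusted p = 0.0156). Gbi05G1688 had 1.10, 0.638 and 1.29 FPKM at 24 h and 2.91, 4.31 and 4.04 FPKM at 36 h, a log2 difference of 1.24 (SE 0.32, limma adjusted p = 0.0353). Their 24 h and 36 h libraries did not overlap, and the 48 h means were 2.60 and 0.892 FPKM. Gbi05G1688 lost its call without any 1 of the 6 libraries (adjusted p from 0.051 to 0.135), and Gbi10G2395 in 3 of the 6 fits (highest adjusted p 0.0633). The count of 19 was 10, 7 and 27 without 36 h replicates 1, 2 and 3, and 8, 10 and 10 without 24 h replicates 1, 2 and 3. The fit of those times alone called 5 of 127 cleared transcripts lower (3.94%, against 0.181% of 23144 genes tested) and 0 higher (0.501% of all genes), the 5 being Gbi10G0039, Gbi10G3005, Gbi09G2393, Gbi09G1925 and Gbi03G0425.

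**Figure D4:**
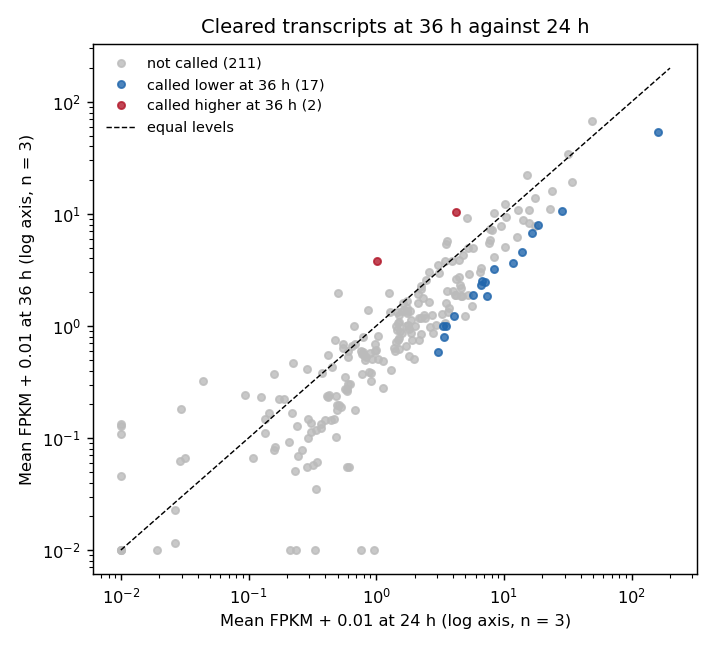
Mean FPKM + 0.01 of each cleared transcript at 24 h (horizontal) and 36 h (vertical), both on log axes, n = 3 per mean; colours mark the 17 called lower and the 2 called higher by limma. Most points lie below the dashed line of equal levels, and the 17 called lower lie at 24 h means of 3.04 FPKM and above.

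A small number of cleared transcripts came back in part after 12 h. In 11 of the 230 the 24 h or 36 h mean was at least 2 times the 12 h mean, and 6 of these reached 5 FPKM. The 12 h values took part in the choice, so no test is given. Gbi03G1486 had 16.3, 18.6 and 12.0 FPKM at 12 h, 30.4, 32.6 and 38.9 FPKM at 24 h and 24.5, 15.8 and 17.8 FPKM at 36 h, then 1.24, 0.973 and 1.96 FPKM at 48 h. Every 24 h library lay above every 12 h library in this gene. Gbi13G4059 had 20.8, 17.0 and 9.28 FPKM at 12 h, 25.1, 38.7 and 32.1 FPKM at 24 h, 26.7, 23.9 and 52.2 FPKM at 36 h and 2.43, 3.57 and 0.536 FPKM at 48 h. It too was higher at 24 h than at 12 h in every library. For the same 24 h light libraries its level was far lower in the light-dark values, as described below, so this rise is uncertain.

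In others the mean did not fall from 12 h to 36 h. Gbi13G4627 stood at 1186 ± 263 FPKM at 0 h and 42.3 ± 15.7 FPKM at 12 h, then at 49.1 ± 11.7 FPKM at 24 h, 66.9 ± 6.76 FPKM at 36 h and 21.7 ± 5.72 FPKM at 48 h, with SD over n = 3. It was the highest cleared transcript at 36 h and at 48 h. Gbi12G1332 stood at 304 ± 36.4 FPKM at 0 h, 14.8 ± 1.10 FPKM at 12 h, 15.2 ± 2.67 FPKM at 24 h, 22.2 ± 3.65 FPKM at 36 h and 11.9 ± 6.99 FPKM at 48 h. In both, the libraries of 12 h and 24 h overlapped, while every 36 h library lay above every 24 h library. Neither was called at that step (log2 differences 0.46 and 0.51, limma adjusted p = 0.382 and 0.311).

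Light and dark at 24 h were compared in the separate light-dark table, which also took no part in the choice. All 230 cleared transcripts are listed there, 11 of them at 0 in every library. Their summed level was 949, 1094 and 1036 FPKM in the dark libraries and 1385, 1495 and 1163 FPKM in light. Without Gbi10G0039 it was 827, 899 and 794 FPKM in the dark and 1010.2, 1208 and 903 FPKM in light. The groups did not overlap on either sum, though light replicate 3 and dark replicate 2 nearly met on the second. The share of summed FPKM was 0.133% ± 0.0136 in the dark and 0.187% ± 0.0213 in light (SD, n = 3). Thus the set had reached a low level at 24 h with or without light.

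Only 128 of the 230 passed the filter in this table, and 16 of these had a mean under 1 FPKM in one of the groups, so the tested transcripts do not stand for the whole set. The other 102 had means of at most 3.15 FPKM. Limma called 6 of the 128 higher in light (4.69%, against 2.55% of all 23059 genes tested) and 0 lower (0.607% of all genes). At an unadjusted p under 0.05, 19 were higher and 3 lower, together 17.2% of those tested, against 29.3% of all genes. The light libraries lay wholly above the dark in 23 of 128 (18.0%, against 23.5% of all genes) and wholly below in 5 (3.91%, against 11.8%). Of the remaining seed genes, 20.8% lay wholly above and 20.7% wholly below. The median log2 difference was 0.17 over the tested transcripts, 0.13 over all genes and 0.02 over the remaining seed genes. That of the tested transcripts was -0.02 after quantile normalization.

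Gbi03G1486 differed most. It stood at 4.83, 5.34 and 6.99 FPKM in the dark and at 39.6, 42.8 and 49.96 FPKM in light. The groups lay wide apart, with a log2 difference of 2.75 (SE 0.17, limma adjusted p = 9.00e-04). This is one of the transcripts that came back after 12 h in the time course under light. It was the only one of the 6 to be called without any 1 of the libraries (adjusted p up to 0.0164). Gbi13G2619, called too (log2 difference 1.46, SE 0.26, limma adjusted p = 0.0273), also came back under light, from a mean of 1.86 FPKM at 12 h to 5.19 FPKM at 24 h and 4.93 FPKM at 36 h.

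Another 3 of the 6 had neighbouring ID numbers. Gbi03G2260 had 0.558, 3.43 and 1.68 FPKM in the dark and 10.4, 21.6 and 13.6 FPKM in light (log2 difference 2.56, SE 0.41, limma adjusted p = 0.0194). Gbi03G2262 had 3.74, 8.20 and 4.64 FPKM in the dark and 13.9, 16.2 and 14.2 FPKM in light (1.33, SE 0.25, limma adjusted p = 0.0328). Gbi03G2263 had 8.19, 11.3 and 13.3 FPKM in the dark and 27.8, 33.7 and 41.6 FPKM in light (1.57, SE 0.22, limma adjusted p = 0.0116). The light values were above all dark values in each of them. Gbi03G2259, the remaining cleared transcript of this stretch, had 15.2, 11.3 and 6.05 FPKM in the dark and 23.7, 33.2 and 22.0 FPKM in light and missed the threshold (limma adjusted p = 0.0603).

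These 4 IDs also had a replicate pattern in common at 0 h, where Gbi03G2259 had 1689, 263 and 260.5 FPKM, Gbi03G2260 had 327, 68.1 and 67.4 FPKM, Gbi03G2262 had 951, 148 and 140.4 FPKM and Gbi03G2263 had 748, 168 and 268 FPKM. Replicate 1 was the highest in all 4, by more than 2 times over both others. It was so in 14 of the 230 cleared transcripts. The 12 h and 24 h means were 15.6 and 15.8 FPKM in Gbi03G2259, 4.58 and 6.45 FPKM in Gbi03G2260, 7.83 and 8.30 FPKM in Gbi03G2262 and 14.7 and 15.6 FPKM in Gbi03G2263. For the same 24 h light libraries the light-dark values averaged 26.3, 15.2, 14.8 and 34.4 FPKM in that order. Each exceeded its time-course mean by more than the median ratio of 1.27 given below. The sizes of their light differences are therefore uncertain. Whether these IDs have near-identical sequences, so that reads of one could be given to another, is not known here, and their separate levels are uncertain for that reason.

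The sixth transcript higher in light was Gbi06G0984, at 1.40, 1.01 and 1.63 FPKM in the dark and 3.29, 4.93 and 3.95 FPKM in light (log2 difference 1.10, SE 0.21, limma adjusted p = 0.0342). It was called in only 1 of the 6 fits without a library. The count of 6 was 2, 2 and 1 without light replicates 1, 2 and 3, 4, 3 and 8 without dark replicates 1, 2 and 3, and 2 with no filter.

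**Figure D5:**
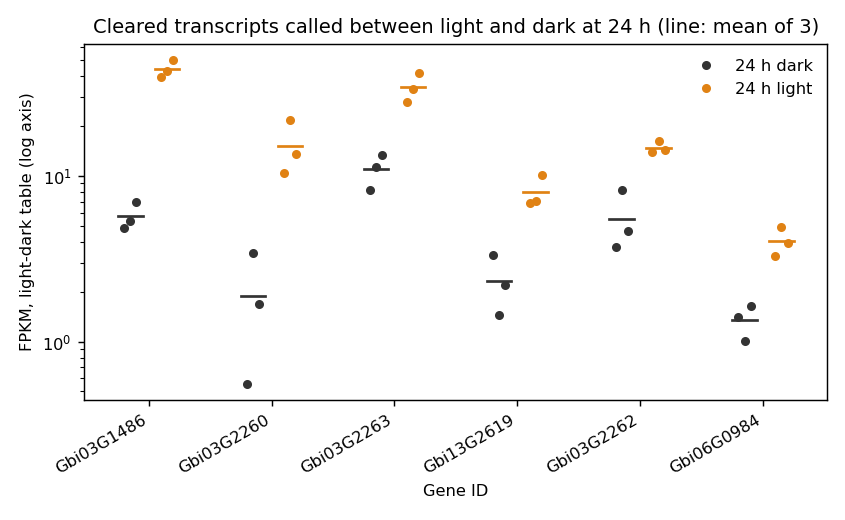
FPKM (log axis) in the light-dark table for the 6 cleared transcripts called higher in light at 24 h; points are libraries, 3 dark and 3 light per gene, and short lines are means. Every light point lies above every dark point of the same gene, and the gap is widest in Gbi03G1486 (dark mean 5.72 FPKM, light mean 44.1 FPKM).

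None of the 10 cleared transcripts highest at 0 h was called between light and dark, which does not show equal levels. Gbi09G1377 stood at 28.1 ± 5.49 FPKM in the dark and 26.3 ± 11.0 in light, Gbi09G1925 at 28.6 ± 3.69 and 35.1 ± 5.70, and Gbi03G0425 at 20.2 ± 4.11 and 23.9 ± 2.46 (SD, n = 3). The groups overlapped in these 3, as in Gbi09G2393, Gbi11G2260, Gbi12G0117 and Gbi09G3157. Gbi10G0039 stood at 122, 196 and 242 FPKM in the dark and 375, 287 and 260 FPKM in light, with no overlap (log2 difference 0.75, SE 0.26, limma adjusted p = 0.110). Gbi10G3005 went the other way, at 21.8, 27.3 and 20.3 FPKM in the dark and 19.3, 18.8 and 18.6 FPKM in light, again with no overlap (log2 difference -0.27, SE 0.15, limma adjusted p = 0.271). Gbi11G0026 was at 0 in this table and was not tested.

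The tables do not give the same level for every cleared transcript in the same 24 h light libraries. Of 131 at 1 FPKM or more at 24 h in the time course, the median ratio of the light-dark value to the time-course value was 1.27, and 21 lay more than 2 times off that. Of the 131, 9 were under 0.1 FPKM in light in the light-dark values. Gbi13G4059 averaged 32.0 FPKM at 24 h in the time course and 0.0538 FPKM in light in the other table. Gbi11G0026 averaged 4.93 FPKM and was listed at 0 in all 6 libraries of the other table, and Gbi03G1741 averaged 6.58 and 0.0158 FPKM. The light-dark comparison thus says nothing on these 3. Which of the values is right is not known, so their time-course levels are uncertain too.

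The cleared transcripts were spread over all 13 ID prefixes (Gbi01 to Gbi13) and the scaffolds. As a share of the genes at 20 FPKM or more at 0 h with the same prefix, they ran from 2.39% for Gbi07 (7 of 293) to 7.56% for Gbi05 (17 of 225) and 8.54% for Gbi04 (21 of 246). The largest number, 33, had the prefix Gbi13, which is 14.3% of the cleared transcripts and also 14.3% of all genes at that level. Adjacent ID numbers were held by 31 of them, in 15 groups. Of the 227 with a numbered ID this is 13.7%, against 29.0% among all genes at 20 FPKM or more at 0 h, a longer list in which neighbours are more frequent by its length. Adjacent IDs could be alike, as Gbi01G2212 and Gbi01G2213 (941 and 846 FPKM at 0 h, 4.16 and 4.61 at 12 h, 1.61 and 1.83 at 24 h). They could also be far apart, as Gbi10G3004 and Gbi10G3005 (38.1 and 6920.1 FPKM at 0 h). The largest group was Gbi06G0247, Gbi06G0248 and Gbi06G0249, at 158, 374 and 184 FPKM at 0 h and at 0.701, 0.611 and 1.66 FPKM at 12 h.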

How the data were processed

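FPKM values were computed and deposited by the authors as a time-course table (15 libraries) and a light-dark table (6 libraries). The submitters' processing notes list HISAT2 2.0.4, HTSeq 0.6.0 and Trimmomatic 0.36. Genome build, annotation, strand and settings: not given in the sources used here. Paired-end libraries came from a NEBNext Ultra RNA kit, per the labels' protocols. FPKM gives no depth, so precision rests on 3 replicates. The time-course columns at 24 h carry no light label and were taken as light, since the dark libraries are named in the other table; their replicate deviations over 14413 genes correlated at 0.791 to 0.818 with the light columns and at -0.0969 to 0.115 with the dark ones. All columns were used, each table by itself. Members and lists were chosen with earlier results of these data known.

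Tests used limma 3.58.1 in R 4.3.3 on log2(FPKM + 1), with a mean-variance trend, two-sided, Benjamini-Hochberg adjusted over all genes reaching 1 FPKM in 3 or more libraries of a table. Calls needed an adjusted p under 0.05 and an absolute log2 difference of at least 1. The 5 times were fitted together. Log2 differences of low genes are understated. Both fits were also run on simulated data, with changes larger than most of those called here. The changed genes had higher levels than most cleared transcripts at 24 h or 36 h. That run therefore says nothing on calls at low levels or of small size. Genes named were the highest at 0, 24 and 36 h, the largest falls, the nearest to each threshold, the called, those with adjacent IDs and those differing most between tables; Gbi13G0450, Gbi05G0203, Gbi06G1919 and the transcripts kept in every fit were chosen after their values were seen. Scaling, filter, pseudocount, replicate block and left-out libraries were varied.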

Additional observations from a re-analysis of the deposited data

How the results depend on the processing

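The number of IDs that met the rule stayed within 1.5 times of 230 under every setting run, from 155 with a 12 h mean at most 1/40 of 0 h to 316 with 1/10, and ran from 215 to 233 when each library at 0, 12 or 48 h was left out. With no filter, 2 transcripts were called in light against dark and 11 in 36 h against 24 h; fewer, 5, were called in a fit of 24 h and 36 h alone, which tested 127. The median log2 difference of light minus dark reversed to -0.022 after quantile normalization; that of 36 h minus 24 h was -0.72 with a pseudocount of 0.1, -0.40 after rescaling to TPM and -0.54 in the fit of 24 h and 36 h alone. The fit of 24 h and 36 h alone left the log2 differences of the 19 called transcripts unchanged and tested 127 in place of 228. The causes of the other shifts were not tested. Leaving out each library gave 1 to 8 calls in light against dark (median 0.12 to 0.29) and 7 to 27 in 36 h against 24 h (median -0.38 to -0.24). Members chosen again without 12 h replicate 3 or 0 h replicate 2, settings added after seeing the data, gave 5 and 6 calls in light against dark and 21 and 19 in 36 h against 24 h. With the replicate block, 5 and 16 were called, with unchanged medians. The deviations of same-numbered libraries from their group means correlated at -0.0912 to 0.0996 and at -0.353 to 0.113. These values show no clear pairing by number and do not exclude one. No called transcript changed direction. FPKM without depth limits what low values can show.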
